A study of Homo sapiens with 24 samples.

Results

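The comparison set the response to GSK-J4 of the neuroblastoma cell line LAN5 against that of IMR5, to find which gene programs are not shared by a pair of lines that the labels describe alike, as sensitive to the compound and MYCN-amplified. The quantity described throughout is a difference of effects: the log2 fold change of GSK-J4 over untreated in LAN5 minus the same fold change in IMR5. Genes were matched by Ensembl identifier and kept where the mean normalized count was at least 100 in both lines, which left 9895 genes of the 27385 listed in both tables and of the 39772 listed in any table of the series. A test was possible for 9882 of them. The groups were LAN5 with GSK-J4, LAN5 untreated, IMR5 with GSK-J4 and IMR5 untreated, with 3 libraries in each and so 12 of the 24 libraries of the series. Treated cells received 1 µM GSK-J4 for 72 hours, and polyadenylated RNA was sequenced. LAN5 and IMR5 are established lines, so each stands for 1 tumour, and a difference between them cannot be told apart from any other difference between those lines.

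GSK-J4 enters cells and inhibits the Jumonji demethylases KDM6A and KDM6B, which take methyl groups off lysine 27 of histone H3, a mark that Polycomb complexes place on silent genes. The programs named below are known for the following roles. NRF2 (gene NFE2L2) is held back by KEAP1 and, when released, switches on genes of glutathione synthesis, thioredoxin, NADPH supply and haem breakdown. HSF1 drives chaperone genes, and TFEB and TFE3 drive lysosome genes. ATF4 and CHOP answer amino acid and protein folding stress. Neuroblastoma cells depend on a core of sympathetic transcription factors (among them HAND2, GATA3 and ISL1) together with MYCN, and can also take a mesenchymal state.

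The files used here hold 1 comparison table per line and no value of any single library, so values per replicate and standard deviations cannot be given and depth per library is unknown. Errors are standard errors of log2 fold changes. A level is a group mean implied by the deposited mean and the fold change. The tables were normalized separately, so levels are compared within a line only, apart from the marker means given below. The sign of the fold changes, GSK-J4 over untreated, is not stated by the tables and was read from BBC3, which the study is known to report as induced, so the sign of BBC3 is not a result. A gene is said to rise or fall in a line where the authors' deposited table calls it at an adjusted p under 0.05. Fold changes had the statistical shrinkage of the authors' tool removed. Neuroblastoma markers were strong in both lines, with all 10 at a mean of at least 100 in LAN5 and 8 of 10 in IMR5. The other 2 were TH, which the IMR5 table does not list, and STMN2, with a mean of 7270.1 in LAN5 against 1.35 in IMR5. None of the immune and endothelial markers reached 100 in either line, and of the Schwann and glial markers 1 did in LAN5 and none in IMR5. Of 11 fibroblast and muscle markers, 4 reached 100 in LAN5 and 5 in IMR5. COL1A1 had a mean of 47.2 in LAN5 and 1104 in IMR5, and PDGFRA 36.7 in LAN5 and 1798 in IMR5. These marker means pool treated and untreated libraries and were normalized per line, so they give a rough contrast and not a baseline state. The part of such differences between the lines in the results below was not tested.

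A difference between the responses of the lines was called for most genes, though it was usually small. A difference was called at a Benjamini-Hochberg adjusted p under 0.05 over all 9882 genes (two-sided Wald test). The GSK-J4 effect was higher in LAN5 for 2638 genes (26.7%) and lower in LAN5 for 3392 (34.3%), 61.0% in all. With standard errors multiplied by 1.5, the effect was higher for 1814 genes and lower for 2358 of the 9882. Whether most genes are called thus depends on the size of the errors. Without that widening, and with a difference of at least 2-fold required as well, 527 genes (5.33%) were higher and 725 (7.34%) lower in LAN5. With each line centred on its median, these counts were 639 higher and 617 lower. The excess on the lower side thus depends on the centring. The median difference over all tested genes was -0.07, and the median standard error of a difference was 0.135. In the authors' deposited tables, 2683 of the tested genes (27.2%) rose and 3963 (40.1%) fell in LAN5, and 3259 (33.0%) rose and 3622 (36.7%) fell in IMR5.

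Shared changes outnumbered opposite ones. Of 4799 genes called in both lines by the authors' deposited tables, 3654 had the same sign, namely 1482 that rose in both and 2172 that fell in both. Changes called in opposite directions, with the difference called too, numbered 490 genes that rose in LAN5 and fell in IMR5 (4.96% of tested genes) and 655 that fell in LAN5 and rose in IMR5 (6.63%), 11.6% together. Lists of genes with a known role are described below by their counts and medians, to be read beside the shares over all tested genes and beside the medians of all tested genes, which were -0.10 in LAN5, -0.03 in IMR5 and -0.07 for the difference. Across genes, which are not independent replicates, the effects in LAN5 and IMR5 had a Pearson correlation of 0.487 and a Spearman correlation of 0.430.

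**Figure D1:**
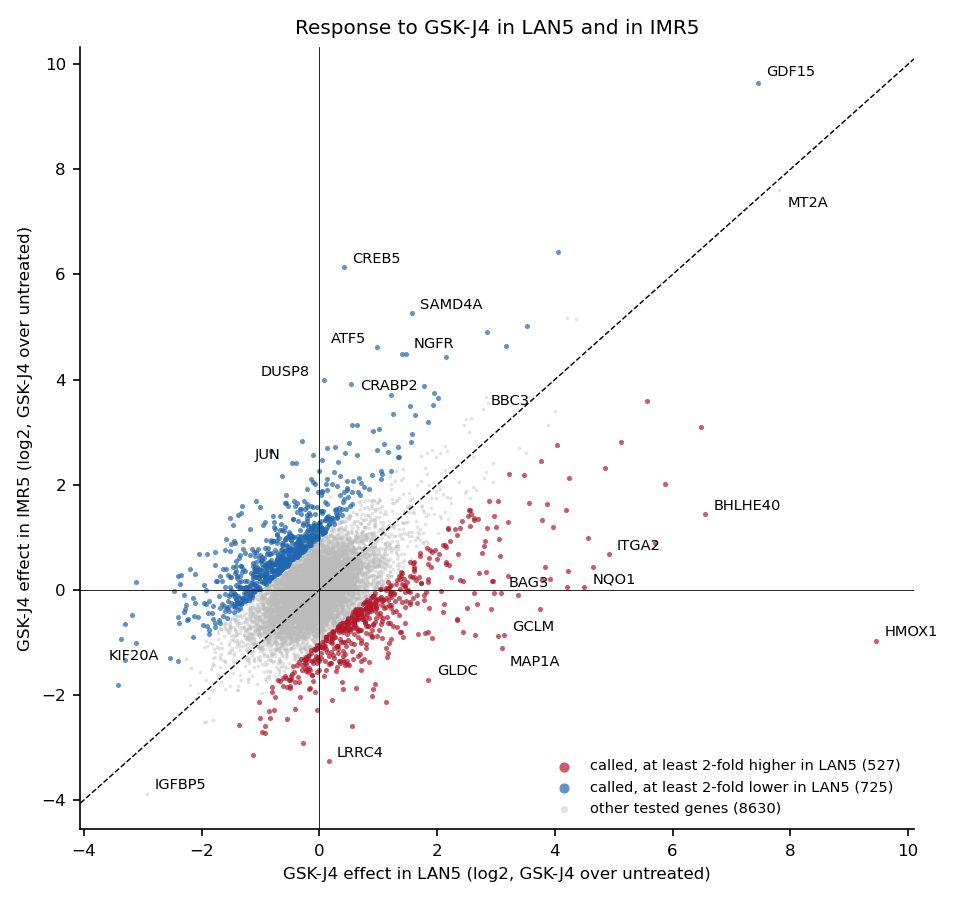
GSK-J4 effect in LAN5 (horizontal axis, log2 of GSK-J4 over untreated) against the effect in IMR5 (vertical axis, same scale), 1 point per tested gene, with equal effects on the dashed line. Red points are the 527 genes called at least 2-fold higher in LAN5 and blue points the 725 called at least 2-fold lower. HMOX1 stands alone at the far right, and CREB5 lies high above the line at an effect near 0 in LAN5.

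**Figure D2:**
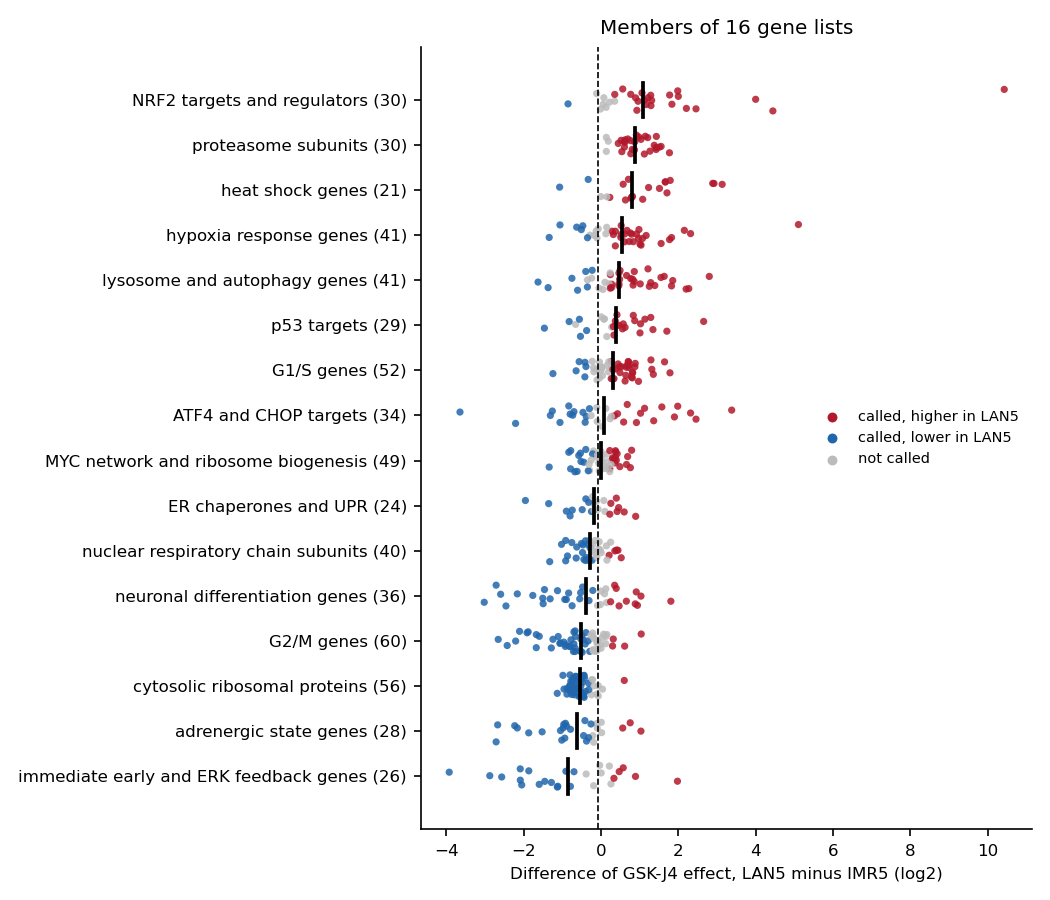
Difference of the GSK-J4 effect, LAN5 minus IMR5 (log2), for the tested members of 16 gene lists, with 1 point per gene, the number of tested members in parentheses and a black bar at each list's median. The dashed line marks the median of all tested genes (-0.07). NRF2, proteasome and heat shock genes lie mostly to its right, and cytosolic ribosomal protein, adrenergic and immediate early genes mostly to its left.

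HMOX1 showed the largest difference of any tested gene. It encodes haem oxygenase 1, which breaks down haem, and lies on GRCh38 at chromosome 22, 35380361 to 35394214, ENSG00000100292. Its implied means in LAN5 were 5728 with GSK-J4 and 8.13 untreated, and in IMR5 they were 81.6 with GSK-J4 and 159.6 untreated. GSK-J4 thus raised it in LAN5, by 9.46 ± 0.264 on the log2 scale, and lowered it in IMR5, where the change was -0.97 ± 0.207. The difference was 10.43 ± 0.336 (adjusted p = 2.55e-208).

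The genes next in order on the LAN5 side had varied functions. BHLHE40, a transcriptional repressor, changed by 6.55 ± 0.406 in LAN5 and 1.44 ± 0.203 in IMR5 (difference 5.11). CSRNP1, a nuclear protein with a role in transcription, differed by 4.82 ± 0.351. NQO1, described with the NRF2 genes below, came next (4.45), followed by ITGA2, a collagen-binding integrin subunit (4.24), ASS1, an enzyme of arginine synthesis (4.20), and the microtubule protein gene MAP1A (4.20). MAP1A moved in opposite directions, by 3.10 ± 0.0704 in LAN5 and -1.10 ± 0.0734 in IMR5. The atypical cadherin FAT1 (4.14), the tubulin TUBB6 (4.10) and ULBP1, a ligand of the natural killer cell receptor NKG2D (3.86), also belonged to the 15 largest. So did GADD45G (3.91), the scaffold gene LIN7A (3.86) and the LIM-domain adaptor AJUBA (3.70). Of the 15 genes on the LAN5 side, only NQO1, MAP1A and GCLM had an untreated implied mean of at least 100 in LAN5. The others, HMOX1 among them, ranged from 3.07 (BHLHE40) to 83.4 (ASS1) untreated. In LAN5 they thus passed the limit on the mean through the treated cells.

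On the IMR5 side the largest difference was that of CREB5, a basic leucine zipper transcription factor (chromosome 7, 28299321 to 28825894, ENSG00000146592). Its implied means in LAN5 were 606 with GSK-J4 and 455 untreated, and in IMR5 they were 1093 with GSK-J4 and 15.4 untreated. The rise in IMR5, 6.15 ± 0.367, stood against 0.41 ± 0.101 in LAN5, a difference of -5.73 ± 0.380 (adjusted p = 2.53e-49). Next came DUSP8, a phosphatase of stress-activated MAP kinases (-3.93), the RNA-binding protein gene SAMD4A (-3.69) and ATF5, a stress-induced leucine zipper factor (-3.65). Untreated implied means in IMR5 were 27.7 for DUSP8, 8.96 for SAMD4A and 178 for ATF5. In IMR5, CREB5, DUSP8 and SAMD4A thus passed the limit on the mean through the treated cells. The same held there for ENSG00000260412, CRABP2, PPP1R16B, METTL7A and NGFR, whose untreated implied means in IMR5 ranged from 27.3 (NGFR) to 73.3 (METTL7A). CRABP2, which carries retinoic acid to the nucleus, differed by -3.37 ± 0.227, with changes of 0.54 ± 0.132 in LAN5 and 3.91 ± 0.184 in IMR5. GAS2L3, a cytoskeletal linker, fell in LAN5 (-3.12 ± 0.144) and had 0.15 ± 0.105 in IMR5. Of the 15 genes on this side, PPP1R16B, DMD, HLF, JUN, YPEL2, ZC3H6 and the unnamed gene ENSG00000260412 fell in LAN5 and rose in IMR5. ENSG00000260412 is annotated as overlapping another gene on the same strand, so its reads could belong to that gene whether or not counting used strand.

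NRF2 targets and regulators mostly rose in LAN5, and in IMR5 about as many rose as fell. The effect was higher in LAN5 for 22 of 30 tested members and lower for 1, SLC40A1, with a median difference of 1.09 against -0.07 over all tested genes. The median effect was 0.95 in LAN5 and 0.06 in IMR5. The authors' deposited tables called 26 of the 30 up and 2 down in LAN5, and 13 up and 12 down in IMR5. Opposite calls, a rise in LAN5 and a fall in IMR5, were made for 9 members.

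Among the regulators, NFE2L2 itself was not called different: it changed by 0.48 ± 0.0616 in LAN5 and 0.42 ± 0.0747 in IMR5 (difference 0.06 ± 0.0969, adjusted p = 0.627). KEAP1, the adaptor that marks NRF2 for degradation, rose in LAN5 (0.47 ± 0.0734) and fell in IMR5 (-0.70 ± 0.0837), a difference of 1.17 ± 0.111 (adjusted p = 2.08e-24). MAFG, a small Maf protein that pairs with NRF2 on DNA, rose by 2.24 ± 0.0917 in LAN5 and 0.24 ± 0.0744 in IMR5.

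The glutathione and NADPH genes held several reversals. GCLM, the modifier subunit of the rate-limiting enzyme of glutathione synthesis, had implied means of 2329 with GSK-J4 and 265 untreated in LAN5 and 1104 with GSK-J4 and 2005 untreated in IMR5. It changed by 3.14 ± 0.110 in LAN5 and -0.86 ± 0.0757 in IMR5 (adjusted p of the difference 9.76e-193). In LAN5 the treated mean was the higher one and in IMR5 the lower one. TALDO1 and PGD of the pentose phosphate pathway, which supplies NADPH, likewise rose in LAN5 (0.75 ± 0.103 and 0.22 ± 0.0737) and fell in IMR5 (-0.56 ± 0.0808 and -0.34 ± 0.0607). SLC7A11, the cystine importer, rose in both lines but more in LAN5, by 5.57 ± 0.111 against 3.58 ± 0.125 in IMR5. CHAC1, which degrades glutathione, also rose in both (3.79 ± 0.153 in LAN5 and 1.33 ± 0.158 in IMR5).

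All 3 tested thioredoxin genes rose in LAN5 and fell in IMR5. TXNRD1, thioredoxin reductase, changed by 1.54 ± 0.0543 in LAN5 and -0.23 ± 0.0556 in IMR5 (difference 1.78 ± 0.0777, adjusted p = 1.6e-112). For PRDX1, a peroxiredoxin, the values were 0.47 ± 0.0989 in LAN5 and -1.36 ± 0.0574 in IMR5, and for thioredoxin itself, TXN, 0.45 ± 0.0969 in LAN5 and -0.48 ± 0.0791 in IMR5. NQO1, a quinone reductase often used as a readout of NRF2, had implied means of 3451 with GSK-J4 and 153 untreated in LAN5 and 1296 with GSK-J4 and 1254 untreated in IMR5. It thus changed in LAN5 alone by the authors' deposited calls, with a difference of 4.45 ± 0.139 (adjusted p = 4.71e-220).

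**Figure D3:**
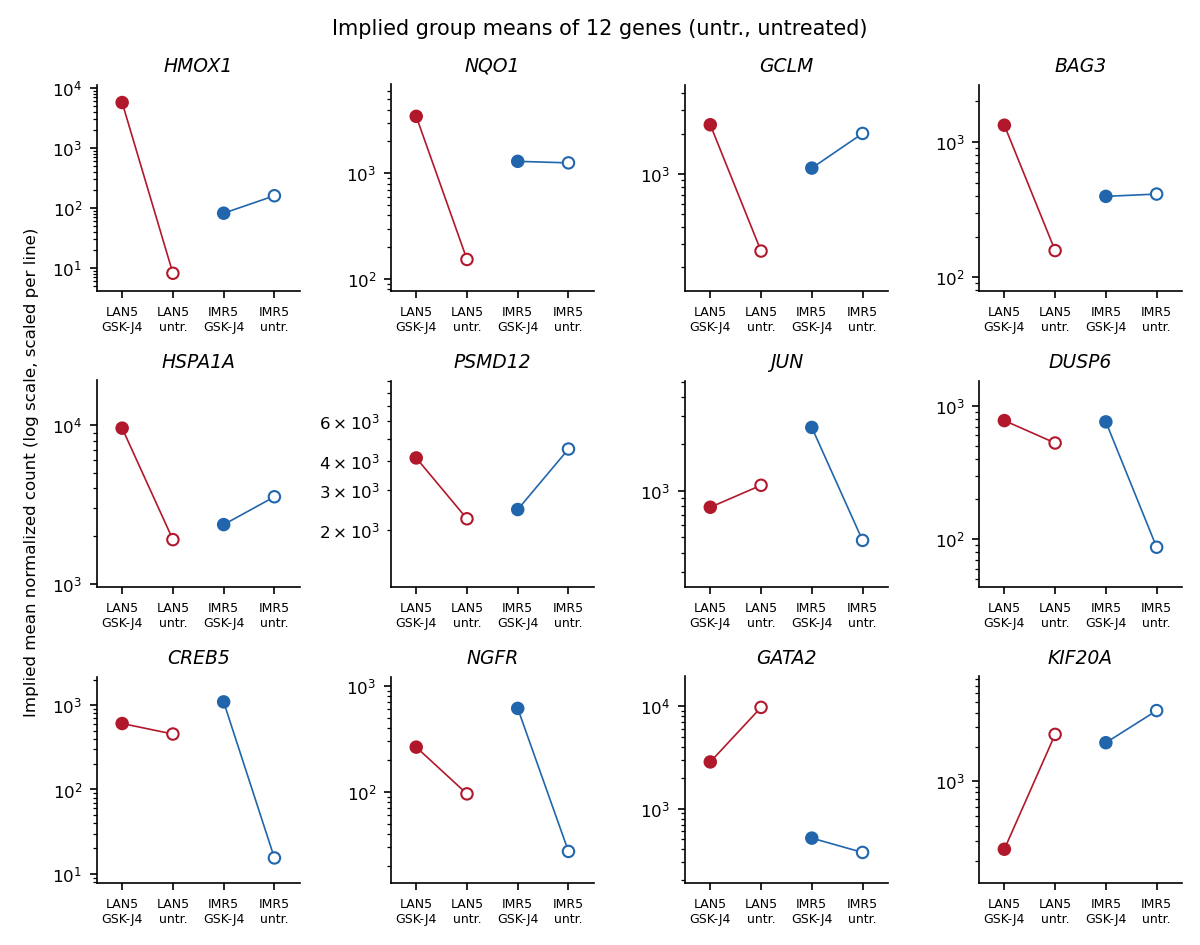
Implied mean normalized counts of 12 genes (vertical axes, log scale, set by each line's own table, so that heights are read within a line only), with LAN5 in red, IMR5 in blue, filled circles for GSK-J4 and open circles for untreated cells. HMOX1, NQO1, GCLM and BAG3 are far higher with GSK-J4 than untreated in LAN5 but not in IMR5, JUN, DUSP6, CREB5 and NGFR are far higher with GSK-J4 in IMR5, KIF20A is lower with GSK-J4 in both, more so in LAN5, and GATA2 is lower with GSK-J4 in LAN5 but not in IMR5.

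The letters NRF2 reads, the antioxidant response element written here as TGACNNNGC, were searched on both strands of promoter windows from 250 bases before to 50 bases after the RefSeq start. The element is short and degenerate, and it can overlap the AP-1 letters TGACTCA. It stood in 7 of 23 windows of the NRF2 list (30.4%), in 15.1% of the windows of all tested genes and in 13.6% of all windows in the table. Similar shares were found in other lists, 9 of 28 windows of ATF4 and CHOP targets (32.1%) and 9 of 30 windows of lysosome and autophagy genes (30%), so nothing particular to NRF2 targets is read from it. In genes at least 2-fold higher in LAN5 its share was 16.5%, and in those at least 2-fold lower 12.9%. A match describes letters only. Of 12 NRF2 list members at least 2-fold higher in LAN5 with a window, stretches with the element were retrieved for 4. These were GCLM, ME1, TXNRD1 and FECH, the last not printed. Stretches of 3 NRF2 targets (GCLM, TXNRD1 and ME1, a malic enzyme that supplies NADPH, whose difference was 1.29) that differ at least 2-fold are printed here 5′ to 3′ on the gene's strand (RefSeq, GRCh38.p14) to show the element, in capitals, in its setting. They are at chr1:93909431-93909489 (minus strand) for GCLM, chr6:83431155-83431213 (minus strand) for ME1 and chr12:104215655-104215713 (plus strand) for TXNRD1, and GCLM holds the reverse complement.
GCLM: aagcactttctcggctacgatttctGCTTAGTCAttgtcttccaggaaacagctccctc
ME1: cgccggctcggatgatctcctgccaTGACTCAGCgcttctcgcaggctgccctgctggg
TXNRD1: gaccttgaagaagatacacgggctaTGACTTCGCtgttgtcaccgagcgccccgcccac

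Proteasome genes moved apart in a nearly uniform way. The proteasome degrades proteins tagged with ubiquitin and is built from a catalytic core and a regulatory cap. The effect was higher in LAN5 for 27 of 30 tested subunits and lower for none, and the median difference was 0.87. The median effect was 0.26 in LAN5 and -0.60 in IMR5. By the authors' deposited tables, 19 subunits rose and 1 fell in LAN5, while none rose and 28 fell in IMR5, and 18 rose in LAN5 and fell in IMR5.

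All 17 tested cap subunits were called higher in LAN5, and 10 of 13 core subunits. PSMD12, a cap subunit, had implied means of 4129 with GSK-J4 and 2231 untreated in LAN5 and 2450.2 with GSK-J4 and 4518 untreated in IMR5, a difference of 1.77 ± 0.0858 (adjusted p = 6.83e-92). Treated cells had the higher mean in LAN5 and the lower mean in IMR5. The cap ATPase PSMC2 differed by 1.55 ± 0.104, and the cap scaffolds PSMD1 and PSMD2 by 1.504 and 1.43. PSMD14, the deubiquitinase of the cap, rose by 0.59 ± 0.0682 in LAN5 and changed by -0.84 ± 0.0664 in IMR5. In the core, the ring subunits PSMA1 (1.42), PSMB4 (1.27) and PSMA3 (1.12) led. The antioxidant element letters stood in 5 of 25 proteasome windows (20.0%), against 15.1% over all tested genes, 20.0% in heat shock and in immediate early genes and 18.4% in G2/M genes. Of 12 subunits at least 2-fold higher in LAN5 with a window, stretches with the element were retrieved for 3. The window of PSMD12, the subunit with the largest difference, is shown at chr17:67366709-67366767 (minus strand, GRCh38.p14, RefSeq), with the element in capitals.
PSMD12: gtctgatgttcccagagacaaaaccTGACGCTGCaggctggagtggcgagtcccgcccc

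Cytosolic ribosomal protein genes moved apart in the other direction. These encode the structural proteins of the ribosome. The effect was lower in LAN5 for 47 of 56 and higher for 1, RPL26 (named after its value was seen, 0.60), with a median difference of -0.54. The median effect was -0.16 in LAN5 and 0.40 in IMR5. Going by the authors' deposited tables, 4 rose and 19 fell in LAN5, 49 rose and 2 fell in IMR5, and 14 fell in LAN5 and rose in IMR5. RPS2 changed by -0.67 ± 0.0883 in LAN5 and 0.46 ± 0.0740 in IMR5 (difference -1.13 ± 0.115, adjusted p = 1.95e-21), RPL12 by -0.47 ± 0.0923 in LAN5 and 0.52 ± 0.0855 in IMR5, and RPL3 by -0.45 ± 0.0607 in LAN5 and 0.42 ± 0.0700 in IMR5. A difference of at least 2-fold was reached by RPS2 alone, so the shift was broad and small. Ribosomal protein genes have many near-identical processed pseudogenes, and how reads shared with them were counted is not given in the sources used here.

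**Figure D4:**
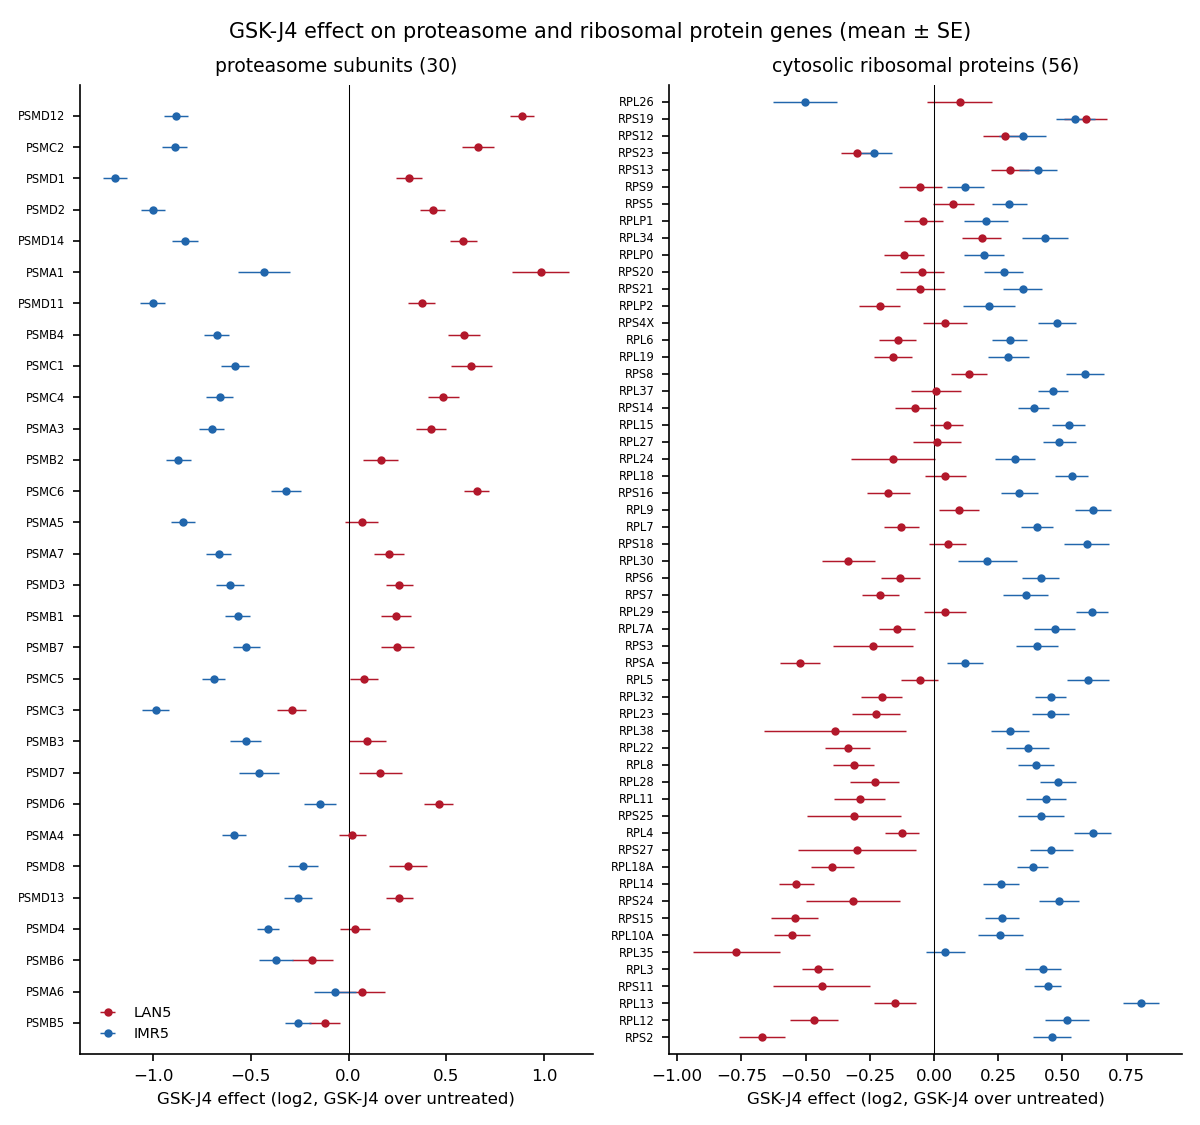
GSK-J4 effect (log2 of GSK-J4 over untreated, point and standard error) on 30 proteasome subunits (left) and 56 cytosolic ribosomal proteins (right), in LAN5 (red) and IMR5 (blue), ordered from the highest to the lowest difference. Nearly all red points lie right of the blue ones on the left panel and left of them on the right panel.

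Heat shock chaperones followed the proteasome. The effect was higher in LAN5 for 17 of 21 tested heat shock genes and lower for 2, which are the regulators HSF1 and HSF2, with a median difference of 0.81. Among the 19 chaperones and co-chaperones alone, 17 were higher, none was lower and the median difference was 1.08. The median effect of the 21 genes was 0.16 in LAN5 and -0.58 in IMR5, and 4 of them fell in LAN5 and 14 in IMR5 by the authors' deposited tables. BAG3, a co-chaperone of HSP70 in selective autophagy, had implied means of 1329.8 with GSK-J4 and 158 untreated in LAN5 and 396 with GSK-J4 and 412 untreated in IMR5 (difference 3.13 ± 0.163, adjusted p = 3.17e-80).

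The inducible HSP70 gene HSPA1A rose by 2.34 ± 0.0729 in LAN5 and changed by -0.58 ± 0.0745 in IMR5, where it fell. Its near-identical neighbour HSPA1B gave 2.34 ± 0.0721 in LAN5 and -0.55 ± 0.0797 in IMR5, and reads cannot be split between them with certainty. DNAJB1, an HSP40 partner of HSP70, also turned, with 1.17 ± 0.0778 in LAN5 and -0.62 ± 0.0669 in IMR5. The constitutive HSP70 gene HSPA8 stood at -0.15 ± 0.0704 in LAN5, not called by the authors' deposited table, and fell in IMR5 (-1.86 ± 0.0664). HSPH1, a nucleotide exchange factor of HSP70, rose in LAN5 (0.40 ± 0.0556) and fell in IMR5 (-1.27 ± 0.0556). HSF2 went the other way, with -0.41 ± 0.0785 in LAN5 and 0.66 ± 0.0921 in IMR5.

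Lysosome genes added to the LAN5 side. Of 41 tested lysosome and autophagy genes, 27 had a higher effect in LAN5 and 7 a lower one, with a median difference of 0.46. Raising the limit on the mean to 500 left 16 higher and a median of 0.28. For the 18 tested lysosomal proteins alone the counts were 14 and 2 and the median 0.84, with medians of 0.79 in LAN5 and -0.18 in IMR5. Of these 18, 17 rose in LAN5, and 6 rose and 9 fell in IMR5, by the authors' deposited tables. CTSD, the protease cathepsin D, had implied means of 485 with GSK-J4 and 185 untreated in LAN5 and 161 with GSK-J4 and 281 untreated in IMR5, a difference of 2.20 ± 0.205 (adjusted p = 2.02e-25). Treated cells had the higher mean in LAN5 and the lower mean in IMR5.

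The sialidase gene NEU1 rose by 2.44 ± 0.138 in LAN5 and stood at 0.17 ± 0.109 in IMR5. The proton pump subunits ATP6V0D1 and ATP6V1C1, which acidify lysosomes, turned between the lines with differences of 1.86 and 1.39. HEXA, CTSA, GLA, LAMP1 and MCOLN1 also rose in LAN5 and fell in IMR5. CTSB, cathepsin B, did the reverse (-0.21 ± 0.0659 in LAN5 and 0.55 ± 0.0821 in IMR5), as did FOXO3, a transcription factor of autophagy genes (-1.05 ± 0.0649 in LAN5 and 0.31 ± 0.0969 in IMR5). In autophagy, ULK1, the kinase that starts it, rose in LAN5 (0.23 ± 0.0879) and fell in IMR5 (-0.63 ± 0.0930), while RRAGC, a small GTPase that recruits mTORC1 to lysosomes, rose by 1.41 ± 0.187 in LAN5 and had -0.23 ± 0.127 in IMR5.

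The E-box CACGTG, the letters read by TFEB, TFE3 and also by MYC proteins, stood in 8 of 30 windows of this list (26.7%) and in 11% of those of all tested genes. Among genes at least 2-fold higher in LAN5 the share was 11.6%, and among those at least 2-fold lower 11.2%. It was 15% in heat shock genes, 14.3% in G2/M genes and 2.27% in cytosolic ribosomal protein genes. The antioxidant element stood in 30% of the same lysosome and autophagy windows. Which factor reads these letters was not tested. Windows of 3 lysosome genes that differ at least 2-fold are shown with the E-box in capitals (RefSeq, GRCh38.p14, minus strand for CTSD, NEU1 and ATP6V0D1): chr11:1763944-1763999 for CTSD, chr6:31862917-31862972 for NEU1 and chr16:67481186-67481241 for ATP6V0D1.
CTSD: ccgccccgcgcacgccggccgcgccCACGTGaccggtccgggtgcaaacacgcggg
NEU1: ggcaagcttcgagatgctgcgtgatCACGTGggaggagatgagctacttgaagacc
ATP6V0D1: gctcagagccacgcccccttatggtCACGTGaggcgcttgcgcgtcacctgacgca

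Most glycolysis genes fell in IMR5, and more of them rose than fell in LAN5. Of 41 tested hypoxia response genes, 27 had a higher effect in LAN5 and 6 a lower one, with a median difference of 0.53. In the glycolytic subset of 20 the counts were 14 and 3, the median difference was 0.68, and the median effect was 0.08 in LAN5 and -0.54 in IMR5. Of the 20, 9 rose and 6 fell in LAN5, and 3 rose and 12 fell in IMR5, by the authors' deposited tables. ALDOA, fructose-bisphosphate aldolase, had implied means of 8695 with GSK-J4 and 4328 untreated in LAN5 and 6418 with GSK-J4 and 10916 untreated in IMR5 (difference 1.77 ± 0.105, adjusted p = 3.26e-61). PFKFB3, which makes an activator of glycolysis, also turned (0.79 ± 0.0648 in LAN5 and -1.03 ± 0.0979 in IMR5), as did GAPDH with a smaller difference (0.76).

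LDHA, lactate dehydrogenase A, fell in both lines, with -0.71 ± 0.0702 in LAN5 and -1.498 ± 0.0958 in IMR5 on the log2 scale. Outside glycolysis, the mitophagy receptor BNIP3 rose in LAN5 (1.22 ± 0.0776) and fell in IMR5 (-0.93 ± 0.117), and STC2, a secreted glycoprotein, rose in both (5.13 ± 0.168 in LAN5 and 2.81 ± 0.139 in IMR5). MXI1, a MAX partner that opposes MYC, did the reverse of BNIP3, with -0.37 ± 0.0724 in LAN5 and 0.97 ± 0.100 in IMR5.

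Immediate early genes and genes that ERK signalling induces to limit itself rose more in IMR5. Of 26 tested members, 15 had a lower effect in LAN5 and 5 a higher one, and the median difference was -0.85. Both lines moved upward: the median effect was 0.82 in LAN5 and 1.70 in IMR5, and 20 rose in LAN5 and 24 in IMR5 by the authors' deposited tables. Many members are weakly expressed: with the limit on the mean raised to 500, 4 members were lower and 3 higher in LAN5 and the median difference was -0.11.

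JUN, an AP-1 subunit, turned: its implied means were 781 with GSK-J4 and 1081 untreated in LAN5 and 2540.4 with GSK-J4 and 479 untreated in IMR5, a difference of -2.88 ± 0.129 (adjusted p = 1.67e-107). DUSP6, the phosphatase that switches off ERK, had implied means of 775 with GSK-J4 and 526 untreated in LAN5 and 758 with GSK-J4 and 86.8 untreated in IMR5, so that a modest change in LAN5 stood against a rise of 3.13 ± 0.162 in IMR5. SPRY4, an inhibitor of receptor tyrosine kinase signalling, rose by 1.249 ± 0.0725 in LAN5 and 3.34 ± 0.192 in IMR5. The transcription factor EGR1 (2.85 ± 0.127 in LAN5 and 4.90 ± 0.383 in IMR5) and the synaptic immediate early gene ARC (1.78 ± 0.116 in LAN5 and 3.87 ± 0.242 in IMR5) rose in both. ETV4, an ERK-responsive ETS factor, and ZFP36L1, an RNA-decay factor, fell in LAN5 and rose in IMR5, with differences of -1.87 and -0.91.

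Sympathetic identity genes fell further in LAN5. Of 28 tested adrenergic state genes, 19 had a lower effect in LAN5 and 3 a higher one, with a median difference of -0.62. For the 14 transcription factors the counts were 12 and 1 and the median difference -0.97, with medians of -1.38 in LAN5 and -0.15 in IMR5. In the authors' deposited tables, 13 of the 14 factors fell in LAN5 and 7 in IMR5. GATA2, a zinc finger factor of developing sympathetic cells, had implied means of 2852 with GSK-J4 and 9708 untreated in LAN5 and 516 with GSK-J4 and 374 untreated in IMR5, a difference of -2.23 ± 0.138 (adjusted p = 5.91e-57). It fell in LAN5 and rose in IMR5.

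ISL1, a homeobox factor of sympathetic neurons, fell in both lines, with -1.51 ± 0.0605 in LAN5 and -0.59 ± 0.0912 in IMR5. HAND2 fell in LAN5 (-1.61 ± 0.0917) and stood at -0.09 ± 0.0618 in IMR5, not called there by the authors' deposited table. PHOX2A and GATA3 also fell in LAN5 and rose in IMR5, PHOX2A with -1.41 ± 0.0830 in LAN5 and 0.46 ± 0.0824 in IMR5, and GATA3 with -0.82 ± 0.0638 in LAN5 and 0.23 ± 0.0606 in IMR5. The receptor tyrosine kinase gene ALK fell in both, with -1.72 ± 0.0702 in LAN5 and -0.83 ± 0.101 in IMR5. GCH1, the first enzyme of tetrahydrobiopterin synthesis, which catecholamine production needs, and the granule protein gene SCG2 rose in IMR5 (2.57 ± 0.140 and 2.60 ± 0.133), against -0.10 ± 0.105 and 0.44 ± 0.0665 in LAN5.

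Neuronal genes split. Of 36 tested neuronal differentiation genes, 10 had a higher effect in LAN5 and 20 a lower one, with a median difference of -0.39 (-0.01, and 8 lower, above a mean of 500). NGFR, the low-affinity neurotrophin receptor, rose in both lines, by 1.47 ± 0.165 in LAN5 and 4.49 ± 0.208 in IMR5. SYT4, a vesicle protein, stood at 0.26 ± 0.0855 in LAN5 and rose by 2.72 ± 0.136 in IMR5. RAB3A and CPLX1 of the presynapse and the RNA-binding protein gene ELAVL4 fell in LAN5 and rose in IMR5, RAB3A with -1.01 ± 0.116 in LAN5 and 1.58 ± 0.159 in IMR5. ENC1, an actin-binding neuronal protein gene, and CPLX2 did the reverse, ENC1 with 0.90 ± 0.0666 in LAN5 and -0.91 ± 0.0929 in IMR5.

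Mesenchymal state genes leaned lower in LAN5 among those tested, with named members on both sides. Only 18 of 45 listed genes were tested, because the others were weak in at least 1 line. Of these, 4 had a higher effect in LAN5 and 10 a lower one (median difference -0.44), and above a mean of 500 the counts were 0 and 5. The transcription factors SNAI2 (0.29 ± 0.109 in LAN5 and -1.47 ± 0.119 in IMR5) and FOSL2 (1.13 ± 0.0807 in LAN5 and -0.32 ± 0.117 in IMR5) rose in LAN5 and fell in IMR5. ANXA2, a membrane-binding protein gene, rose in both (3.97 ± 0.117 in LAN5 and 1.20 ± 0.112 in IMR5). The matrix genes TNC and LAMB1 fell in LAN5 and rose in IMR5 (differences -1.78 and -1.33), and COL6A1 stood at 0.04 ± 0.0794 in LAN5 and rose by 1.88 ± 0.0818 in IMR5. All 3 tested HOX genes of 38 listed, targets of Polycomb in many cells, had a lower effect in LAN5: HOXC4 (-1.57), HOXD8 (-1.28) and HOXD9 (-0.97).

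Cell cycle genes fell in both lines, to depths that differed by phase. Genes of DNA replication (G1/S) fell further in IMR5: 30 of 52 had a higher effect in LAN5 and 6 a lower one, with a median difference of 0.32 and medians of -0.63 in LAN5 and -0.95 in IMR5. Genes of mitosis (G2/M) fell further in LAN5: 37 of 60 had a lower effect in LAN5 and 4 a higher one, with a median difference of -0.51 and medians of -1.14 in LAN5 and -0.64 in IMR5. In the authors' deposited tables, 42 G1/S genes fell in LAN5 and 51 in IMR5, and 56 G2/M genes fell in LAN5 and 54 in IMR5. In bulk RNA, fewer cells in a phase and less RNA per cell cannot be told apart.

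In mitosis, KIF20A, a kinesin of cytokinesis, had implied means of 252 with GSK-J4 and 2601 untreated in LAN5 and 2196 with GSK-J4 and 4219 untreated in IMR5, a difference of -2.43 ± 0.113 (adjusted p = 1.53e-98). The fall was deep in LAN5 and shallower in IMR5. CENPA, the centromeric histone, differed by -2.66 ± 0.214, and TOP2A, the topoisomerase that untangles chromosomes, fell in LAN5 (-2.30 ± 0.0580) and stood at -0.10 ± 0.0586 in IMR5, where it was not called by the authors' deposited table. The kinase PLK1 (-2.11), the ubiquitin-conjugating enzyme UBE2C (-1.91) and securin, PTTG1 (-1.88), followed. MKI67, the proliferation marker, fell in both lines, with -3.41 ± 0.0830 in LAN5 and -1.82 ± 0.0680 in IMR5. The centrosomal kinase NEK2 was the only 1 of the 60 to turn, with -0.71 ± 0.0939 in LAN5 and 0.57 ± 0.0885 in IMR5.

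In replication, CDC6, which loads the MCM helicase, stood at -0.00 ± 0.0703 in LAN5 and fell in IMR5 (-1.35 ± 0.114). CCNE2, cyclin E2, stood at 0.13 ± 0.143 in LAN5 and fell in IMR5 (-1.19 ± 0.182). The helicase subunit GINS4 stood at -0.02 ± 0.106 in LAN5 and fell in IMR5 (-1.32 ± 0.142). The repressor gene E2F7 and the clamp loader subunit RFC3 rose in LAN5 and fell in IMR5, E2F7 with 1.45 ± 0.0999 in LAN5 and -0.33 ± 0.121 in IMR5. Its relative E2F8 fell in both, with -1.803 ± 0.174 in LAN5 and -0.56 ± 0.107 in IMR5. Among regulators of G1, CCND1, cyclin D1, fell in both lines, with -1.89 ± 0.0524 in LAN5 and -0.45 ± 0.0584 in IMR5, while its kinase partner gene CDK4 stood at 0.04 ± 0.103 in LAN5 and fell in IMR5 (-0.997 ± 0.0881).

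**Figure D5:**
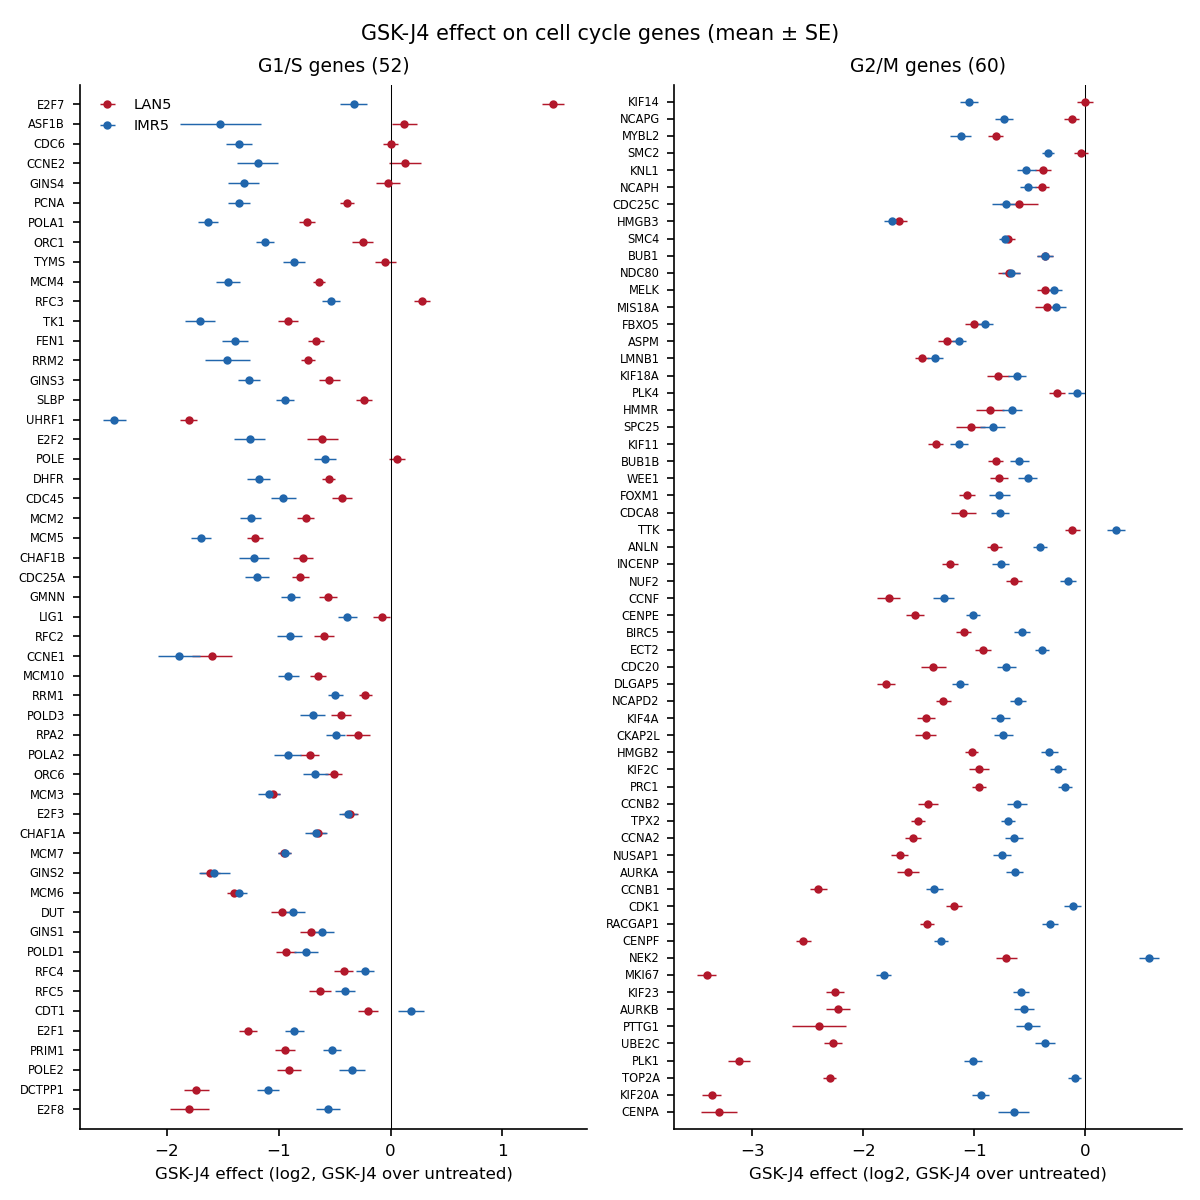
GSK-J4 effect (log2 of GSK-J4 over untreated, point and standard error) on 52 G1/S genes (left) and 60 G2/M genes (right) in LAN5 (red) and IMR5 (blue), ordered from the highest to the lowest difference. On the left most red points lie right of the blue ones, nearer 0; on the right most lie left of them, with CENPA, KIF20A, PLK1 and MKI67 below -3 in LAN5.

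Targets of p53 rose in both lines, most of them more in LAN5. By the authors' deposited tables, 27 of 29 tested targets rose and none fell in LAN5, and 25 rose and 1 fell in IMR5. The effect was higher in LAN5 for 18 and lower for 5, with a median difference of 0.40, and none was called in opposite directions. The subsets differed. Of 7 tested arrest genes, CDKN1A among them, 2 had a higher effect in LAN5 and 4 a lower one, with a median difference of -0.37. Of 11 tested death genes, 8 had a higher effect and 1 a lower one, with a median difference of 0.56. FAS, a death receptor, had implied means of 516 with GSK-J4 and 28.5 untreated in LAN5 and 356 with GSK-J4 and 124 untreated in IMR5, so that both lines rose and LAN5 by more (difference 2.66 ± 0.240, adjusted p = 4.63e-27). CDKN1A, the cyclin-dependent kinase inhibitor p21, rose by 3.47 ± 0.0791 in LAN5 and 2.18 ± 0.0985 in IMR5.

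DDB2, a sensor of ultraviolet damage, rose by 1.85 ± 0.154 in LAN5 and stood at 0.14 ± 0.187 in IMR5. MDM2, which degrades p53, rose by 1.76 ± 0.0834 in LAN5 and 0.89 ± 0.0692 in IMR5. PLK2 was the member with the largest difference the other way (-1.46). BBC3, the gene of the killer protein PUMA, rose by 2.78 ± 0.260 in LAN5 and 3.43 ± 0.185 in IMR5, and its difference of -0.66 ± 0.319 was not called (adjusted p = 0.0635). With the folds as deposited that difference was called (adjusted p = 0.0386).

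In the BCL2 family, which sets the threshold for apoptosis, 6 of 11 tested members had a higher effect in LAN5 and none a lower one. BAX, a pore-forming killer, rose by 1.01 ± 0.0793 in LAN5 and stood at 0.18 ± 0.0902 in IMR5. MCL1, which protects cells, turned, with implied means of 5329.7 with GSK-J4 and 3715 untreated in LAN5 and 8439 with GSK-J4 and 12858 untreated in IMR5 (difference 1.13 ± 0.0840, adjusted p = 2.65e-39).

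The integrated stress response was shared in extent and split in detail. The authors' deposited tables called 33 of 34 tested ATF4 and CHOP targets up in LAN5 and 32 up in IMR5, with median effects of 1.70 in LAN5 and 1.64 in IMR5. The effect was higher in LAN5 for 14 and lower for 13, and the median difference was 0.08 (8 higher, and -0.10, above a mean of 500). ATF4 itself rose by 0.95 ± 0.0855 in LAN5 and 0.71 ± 0.104 in IMR5, a difference that was not called (adjusted p = 0.115) and that was called with each line centred on its median (0.31, adjusted p = 0.0385).

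The transcription factors of this list leaned to IMR5, with 6 of 7 lower in LAN5 and none higher. DDIT3, which encodes CHOP, rose by 2.83 ± 0.162 in LAN5 and 3.67 ± 0.301 in IMR5 (adjusted p of the difference 0.0263, and 0.102 with the folds as deposited). Of the secreted products, ADM2 rose more in LAN5 (6.48 ± 0.254 against 3.10 ± 0.175 in IMR5). GDF15 rose in both, by 7.44 ± 0.518 in LAN5 and 9.65 ± 0.270 in IMR5. Its difference of -2.21 ± 0.584 was -0.21, and not called (adjusted p = 0.821), under a narrower assumed prior. SLC38A2, an amino acid transporter, rose in LAN5 (1.22 ± 0.0809) and fell in IMR5 (-0.35 ± 0.0696).

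Of 4 tested sensors of the unfolded protein response, 3 had a lower effect in LAN5 and none a higher one. ERN1, which encodes IRE1, rose by 1.54 ± 0.108 in LAN5 and 3.498 ± 0.235 in IMR5, and EIF2AK3, which encodes PERK, fell in LAN5 (-0.40 ± 0.0985) and rose in IMR5 (0.50 ± 0.101). HERPUD1, of the pathway that clears misfolded proteins from the endoplasmic reticulum, rose by 1.84 ± 0.0761 in LAN5 and 3.20 ± 0.245 in IMR5. Over all 24 tested genes of this list 7 had a higher effect in LAN5 and 9 a lower one (3 and 5 with standard errors multiplied by 1.5). The counts of 7 and 9 are near the shares over all tested genes (26.7% higher and 34.3% lower). Nothing particular to the list is therefore read from them. Its 14 tested chaperones had 6 higher and 4 lower in LAN5, with a median difference of -0.02.

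MYCN and the growth genes it is known to drive fell in both lines. MYCN changed by -1.91 ± 0.0489 in LAN5 and -1.08 ± 0.0709 in IMR5, a difference of -0.83 ± 0.0862 (adjusted p = 8.12e-21), with implied means of 10267 with GSK-J4 and 38549.6 untreated in LAN5 and 7335 with GSK-J4 and 15460.4 untreated in IMR5. By the authors' deposited tables, 38 of 49 tested genes of the MYC network and ribosome biogenesis fell in LAN5 and 39 in IMR5, and the median difference was -0.00, with 15 higher and 13 lower in LAN5 (9 and 9 with standard errors multiplied by 1.5). DDX1, MYCN's usual neighbour in the amplified segment, is not among the genes named by rule and was looked up after its value was seen: it fell in both lines, with -0.58 ± 0.0523 in LAN5 and -0.64 ± 0.0508 in IMR5. NBAS, the next gene along chromosome 2, turned, with implied means of 7911 with GSK-J4 and 13028 untreated in LAN5 and 106205 with GSK-J4 and 57052 untreated in IMR5 (difference -1.62 ± 0.105, adjusted p = 2.45e-51). Of 11 tested amplicon neighbours, 4 had a higher effect in LAN5 and 4 a lower one, with a median difference of 0.06. GEN1 had the largest difference towards LAN5 (1.23). The antisense transcript MYCNOS overlaps MYCN. Whether counting used strand, which would separate their reads, is not given in the sources used here.

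The target enzymes of the compound were both raised. KDM6A rose by 0.51 ± 0.101 in LAN5 and 0.42 ± 0.0985 in IMR5, with no called difference (adjusted p = 0.598), and KDM6B by 0.55 ± 0.0776 in LAN5 and 1.18 ± 0.0907 in IMR5 (difference -0.63 ± 0.119, adjusted p = 6.33e-07). EZH2, the Polycomb methyltransferase that opposes them, fell in both lines, with -0.71 ± 0.0757 in LAN5 and -0.24 ± 0.0648 in IMR5. Its relative EZH1 stood at 0.02 ± 0.0867 in LAN5 and rose by 1.30 ± 0.0818 in IMR5. Of 27 tested genes of this list 2 had a higher effect in LAN5 and 12 a lower one (median difference -0.12), and with standard errors multiplied by 1.5 the counts were 1 and 6. The Polycomb genes PCGF1 and SCML2 fell in LAN5 and rose in IMR5 (differences -1.55 and -0.54). Among other Jumonji demethylases, KDM3A, JMJD6 and KDM5A rose in LAN5 and fell in IMR5, KDM3A with 0.91 ± 0.0678 in LAN5 and -0.65 ± 0.0810 in IMR5, while KDM7A rose in both (0.29 ± 0.0727 in LAN5 and 1.53 ± 0.118 in IMR5).

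Genes of oxidative phosphorylation leaned to IMR5. Of 40 tested nuclear genes of the respiratory chain, 5 had a higher effect in LAN5 and 20 a lower one, with a median difference of -0.29 and medians of -0.29 in LAN5 and -0.02 in IMR5. With standard errors multiplied by 1.5 the counts were 1 and 12. UQCRC1, a core subunit of complex III, fell in LAN5 (-0.72 ± 0.0739) and rose in IMR5 (0.30 ± 0.0842), as did CYC1 and UQCRB of the same complex, COX5A and NDUFS7. Of the 13 mRNAs encoded by mitochondrial DNA, 7 had a lower effect in LAN5 and 1 a higher one (4 and 0 with the wider errors). MT-ND6 gave the largest difference of these (-1.75 ± 0.230), with -2.38 ± 0.217 in LAN5 and -0.62 ± 0.0746 in IMR5, and it is transcribed from the strand opposite to most mitochondrial genes.

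The metallothionein MT2A, which binds zinc and copper, rose strongly in both lines, 7.81 ± 0.462 in LAN5 and 7.61 ± 0.237 in IMR5. Its difference of 0.20 ± 0.519 was not called (adjusted p = 0.748), but its sign and call depend on the assumed prior: the difference was -0.59 (adjusted p = 0.255) with folds as deposited, -0.17 (0.776) with a wider prior and 1.36 (0.0388) with a narrower one.

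The table read as that of SK-N-FI, a sensitive line without MYCN amplification, gives a view of the same genes in another line. Its match to the line rests on the likeness of names, and no test was made. Of the 527 genes at least 2-fold higher in LAN5, 464 had a value there, of which 118 rose and 142 fell by the authors' deposited table, with a median of -0.05. Of the 725 at least 2-fold lower, 583 had a value, of which 182 rose and 142 fell by that authors' deposited table, with a median of 0.03. Of all tested genes with a value, the authors' deposited table called 25.4% up and 23.2% down in SK-N-FI.

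The programs that split LAN5 from IMR5 did not all lie with the same line in SK-N-FI. In the proteasome list none of 30 rose and 8 fell by the authors' deposited table for that line (median -0.09, against 0.26 in LAN5 and -0.60 in IMR5). In the ribosomal protein list 54 of 56 rose by the authors' deposited table (median 0.74, against -0.16 in LAN5 and 0.40 in IMR5). In the NRF2 list the authors' deposited table called 17 of 28 up and 2 down (median 0.54, against 0.95 in LAN5 and 0.06 in IMR5), and in the hypoxia list 36 of 40 up (median 0.95, against 0.25 in LAN5 and -0.16 in IMR5). HMOX1 rose there by 2.38 ± 0.160.

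The limit of 100 on the mean fell between genes of nearly equal means. In LAN5 the genes just inside were ENSG00000274627 (mean 100.018, difference -0.19) and ASAP3 (100.2, -1.18) and those just outside ABCB9 (99.9, 0.28) and SORBS3 (99.7, -0.12). In IMR5 those just inside were ZNF213-AS1 (100.2, 0.99) and C19orf44 (100.3, -0.37) and those just outside LINC02987 (99.977, 0.85) and WWOX (99.6, -2.05). The genes outside the limit entered only the alternative with a lower limit on the mean.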

How the data were processed

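Polyadenylated RNA of LAN5 and IMR5, untreated or treated, was sequenced from libraries made with a strand-specific kit, per the labels' protocols. The submitters' processing notes name FastQC, STAR, DESeq2 and hg38, without versions. No label says that replicates were separate cultures, and p-values then measure only a spread between libraries that may be technical.

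The deposited signal column is the mean over a line's libraries of counts that the authors normalized within that table, per the file headers. The log2 fold change, its error, the Wald statistic (a score), the p-value and its adjusted form are used as the authors deposited them. The deposited folds carry a normal prior. It was removed by solving for each gene the equations of the shrunken fold and error, with a prior standard deviation estimated as 2 times the largest standard error of the table, the limit that such a prior sets (the median ratio of prior-removed to deposited folds was 1.01 in both lines). Group means were implied from the deposited mean and the fold with 3 libraries per group. Positions are from GENCODE release 29 on GRCh38.

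The design foresaw a count model where values per library are given. With comparison tables only, differences of folds without the prior were tested by Wald statistics, two-sided, adjusted by Benjamini-Hochberg over 9882 genes (Python 3.11.15, scipy 1.17.1). The remaining 13 members have no p-value in a table. On simulated folds for these 9882 genes the test called 36 of 68 genes changed by 0.5, 62 of 63 changed by 1 and all 69 changed by 2, and 6 unchanged genes. The simulation drew its noise from the same standard errors and used the same prior width as the test. It therefore cannot check whether those errors or that prior are right. The members, gene lists and tests were chosen with earlier results of these data known. Genes named in the text, apart from those said to be chosen after their values were seen and those shown for a promoter window, are among the 15 largest called differences each way, among the 6 largest called in a list or called in opposite directions in a list, or belong to the 15 genes fixed by name or to the pairs nearest the limit on the mean. Alternatives were the deposited folds, other prior widths, other limits on the mean, 2 centrings, wider errors and a test against a difference of 1. The line SK-N-BE(2) was not analysed here, and some genes that the rule names are not reported here.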

Additional observations from a re-analysis of the deposited data

Results flagged for a closer look

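The effect of GSK-J4 differed between the lines by a test of the difference itself for 2638 genes higher and 3392 lower in LAN5. It differed at least 2-fold for 527 genes higher and 725 lower. In opposite directions, 490 genes rose in LAN5 and fell in IMR5 and 655 did the reverse, by the authors' deposited tables and the test of the difference together.

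The genes below moved more than 2-fold in each line and in opposite directions, and are given as values. They are the 5 on each side with the largest change in the line that changed less. GLDC, the glycine decarboxylase, rose in LAN5 (1.85 ± 0.172) and fell in IMR5 (-1.71 ± 0.0733), a difference of 3.56. LGALS8, a galectin that senses damaged vesicles, rose in LAN5 (1.13 ± 0.0873) and fell in IMR5 (-2.13 ± 0.136) (3.26). PRTFDC1 differed by 2.43, the neuronal transcription factor EBF3 by 2.37 and the histone chaperone ASF1A by 2.25. On the other side, dystrophin, DMD, fell in LAN5 (-1.32 ± 0.180) and rose by 1.60 ± 0.152 in IMR5, a difference of -2.92. HLF, a leucine zipper transcription factor, differed by -2.88, YPEL2 by -2.81, SHROOM2, a regulator of cell shape, by -2.79 and DPP6, a subunit of neuronal potassium channels, by -2.71.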

How the results depend on the processing

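The counts of genes higher and lower in LAN5 stayed within 1.5 times of those reported under the deposited folds, both other prior widths, a mean of at least 50, both centrings and standard errors multiplied by 1.5. With a mean of at least 500, which leaves 5579 genes to test, 1680 were higher and 1960 lower in LAN5, 210 and 275 differed at least 2-fold, and 308 and 379 were called in opposite directions. A Wald test against an absolute difference of 1 called 196 higher and 243 lower in place of 527 and 725, as it asks for more than a difference from 0. The share of called differences that were higher in LAN5 was 43.75% as reported, 50.44% with each line centred on its median and 47.01% with each line centred on its most strongly expressed genes, a centring that moves the median effect to 0.04 in LAN5 and 0.08 in IMR5. List medians within a line move by the same amounts, so the ribosomal protein median of -0.16 in LAN5 is close to no change on that scale. Of 296 named genes, 275 kept their direction and their side of the threshold in every alternative that tested them. The exceptions that reversed were MT2A, at -0.59 with deposited folds and -0.17 with the wider prior, and the cause was not tested. Standard errors multiplied by 1.5 ended 17 calls of named genes, the largest of them on a difference of 0.887. The same wider errors moved smaller counts of some lists by over 1.5 times: members lower in LAN5 became 1 for heat shock, 3 for p53 targets, 3 for G1/S and 4 for lysosome and autophagy genes, and members higher in LAN5 became 2 for immediate early genes and 0 for cytosolic ribosomal proteins. No paired analysis was possible because the tables hold no values per library. For the same reason leaving out single replicates, a replicate block and count models with other normalizations were not run.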

Other observations

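Transfer RNA synthetases, many of which are ATF4 targets, gave counts near the shares over all tested genes (26.7% higher and 34.3% lower in LAN5). Of 20 cytosolic enzymes, 6 had a higher effect in LAN5 and 7 a lower one, so nothing particular to the list is read from the counts. WARS1, the tryptophan enzyme, rose by 2.18 ± 0.0673 in LAN5 and 1.17 ± 0.0780 in IMR5, while AARS1, the alanine enzyme, stood at 0.04 ± 0.0676 in LAN5 and rose by 1.51 ± 0.0772 in IMR5. QARS1, the glutamine enzyme, fell in LAN5 (-0.73 ± 0.0845) and rose in IMR5 (0.31 ± 0.0728).

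Axon guidance genes gave counts of 6 higher and 7 lower in LAN5 of 24 tested, also near the shares over all tested genes. The plexin receptor PLXNA2 rose by 1.72 ± 0.0815 in LAN5 and stood at 0.13 ± 0.157 in IMR5, PLXNC1 rose in LAN5 (0.73 ± 0.147) and fell in IMR5 (-0.56 ± 0.161), and the ephrin receptor EPHA2 rose by 1.21 ± 0.108 in LAN5 and 3.70 ± 0.126 in IMR5. Among collagens, laminins and integrins, 3 of 15 tested had a higher effect in LAN5 and 8 a lower one, with ITGA9 falling in LAN5 (-0.86 ± 0.110) and rising in IMR5 (0.68 ± 0.0973). Of 28 tested cholesterol genes 17 were not called, 4 had a higher effect in LAN5 and 7 a lower one, and the median difference was -0.11.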
